A study of Homo sapiens with 8 samples.

Results

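Cytokinesis is the last step of cell division, and 10 of its genes were described across the treatment groups of a ribosome profiling experiment. They were the cortical scaffold ANLN (anillin), the RhoA regulators ECT2 and RACGAP1, the spindle midzone bundler PRC1, the midbody kinase CIT, the abscission factor CEP55, and the septins SEPTIN2, SEPTIN7, SEPTIN9 and SEPTIN11. They were taken by gene symbol from the 60651 genes of the table, and each of the 10 symbols matched 1 row. The genes were chosen by function and with the fold changes of CR31B against DMSO from an earlier analysis of these data in view, so their differences between the groups are given as a description and support nothing by themselves.

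In ribosome profiling, lysates are digested with nuclease and the stretches of mRNA covered by ribosomes, the footprints, are sequenced. The cells were IMR32, an established human neuroblastoma line with amplified MYCN, and the labels give their genotype as wild type. In 1 group of 4 libraries the cells had received CR31B, a silvestrol analogue of the rocaglate class, and in the other group of 4 libraries the solvent DMSO. Both groups were harvested after 6 h and after cycloheximide, which halts elongating ribosomes. Rocaglates clamp the RNA helicase eIF4A onto purine-rich stretches of mRNA, so the question was which footprint levels differed under the inhibitor. All libraries come from a single cell line, and the dose of CR31B is not given in the sources used here. Footprints alone were measured, so that less mRNA and fewer ribosomes per mRNA cannot be told apart, nor can fewer cells in a stage of the cell cycle and less RNA per cell.

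In dividing cells the guanine nucleotide exchange factor ECT2 binds RACGAP1 at the central spindle, which PRC1 organises, and activates the GTPase RhoA at the equator. RhoA turns on formins, which build the actin filaments of a ring that myosin contracts. Anillin ties that ring to RhoA, to the membrane and to septins, GTP-binding proteins that assemble into filaments. Citron kinase and CEP55 then act at the midbody, where CEP55 recruits the ESCRT machinery that cuts the last bridge.

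Levels are in TPM, which divides a gene's reads by a length and gives every library the same total. Differences between the groups are therefore relative to the rest of each library, and a fall shared by all genes would not be seen. Which length was used is not given in the sources used here. Footprints fall mainly on the coding part, which took 23.0% of the annotated SEPTIN11 transcript and 86.6% of that of RACGAP1, so levels of different genes are compared only roughly. The number of reads behind each value is not part of the table. The CR31B libraries listed 17857 to 19758 genes above 0 and the DMSO libraries 19043 to 22270. For every replicate number the CR31B library listed fewer than the DMSO library. The share of TPM in protein-coding genes lay between 51.8% and 61.3% in CR31B, with replicate 1 the highest, and between 52.0% and 58.4% in DMSO. The part of these differences in the results was not tested. Libraries of 1 group correlated at 0.963 to 0.987 on log2(TPM + 1), and libraries of different groups at 0.946 to 0.975. The adrenergic markers of neuroblastoma summed to 724 to 829 TPM in CR31B and 671 to 852 TPM in DMSO. Of the 11 of these 12 markers that were tested, 1 was called. It was HAND2, a transcription factor of sympathetic neurons, which was higher in CR31B with no overlap (log2 fold change 0.58, limma adjusted p of 0.0188, and 0.0577 without DMSO replicate 2); its part in the results was not tested. TH, the first enzyme of catecholamine synthesis, had a mean under 1 TPM. Schwann and glial markers summed to at most 2.40 TPM in any library and blood and endothelial markers to at most 1.12 TPM. Among fibroblast markers COL1A1 reached 16.13 TPM, while PRRX1 and TWIST2 were listed at 0 in all 8 libraries.

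ANLN and SEPTIN11 were lower after CR31B, while the other 8 genes lay within the spread between libraries. A gene was called at a Benjamini-Hochberg adjusted p under 0.05 in limma, fitted over the 11778 genes whose mean reached 1 TPM. All 10 genes passed that filter and 9 had a mean of at least 10 TPM. By this rule 2 of the 10 were called, both lower, beside 7.46% of all tested genes called in either direction and 4.02% called lower. The same 2 genes were those whose groups did not overlap, both lower in CR31B; over all tested genes the groups did not overlap for 16.2%, made up of 8.14% lower and 8.07% higher. The median log2 fold change of the 10 was -0.067, and that of all tested genes was 0.029. A fit with replicate number as a block called 12.3% of all tested genes and again 2 of the 10. Fold changes refer to log2(TPM + 1), which understates those of low genes.

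**Figure D1:**
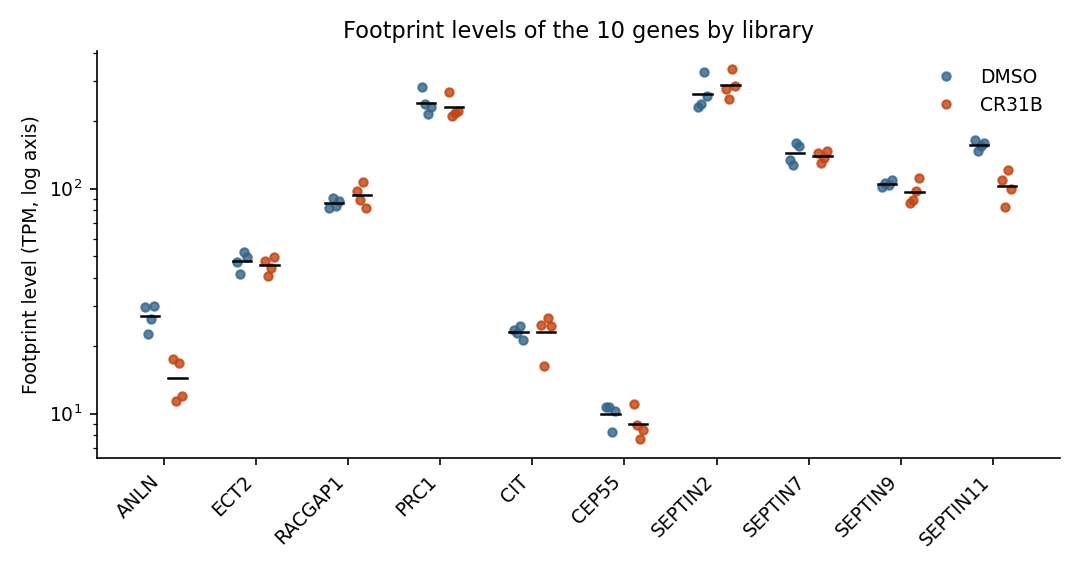
Footprint level (TPM, log axis) of the 10 genes in each of 4 DMSO (blue) and 4 CR31B (orange) libraries; points are libraries and black bars are group means. The ANLN points of CR31B, from 11.36 to 17.45 TPM, lie below the DMSO points, and so do those of SEPTIN11, while the groups overlap for the other 8 genes.

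Since rocaglates act on purine stretches of mRNA, the 5′ untranslated leaders were read from 1 annotated coding transcript per gene (GENCODE release 29, GRCh38; the principal isoform where marked). The table does not say which isoforms were translated. The longest run of purines (A or G) is shown in capitals for both genes that were lower, for SEPTIN7 and SEPTIN2, which were not called and whose runs were at least as long as that of ANLN, and for PRC1, whose run in the transcript used was the shortest of the 10.
ANLN leader: gaagccGAGAGGAGAGGAcagctg
SEPTIN11 leader: taaagcGGGAGGGGcggcgg
SEPTIN7 leader: ggtcgcGGAGGGGGGGAGGGG
SEPTIN2 leader: cacaccAGAAGGAGAAAGctaggg
PRC1 leader: gctctcGGGGccgtgt

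The longest run was 12 bases long in ANLN, 134 bases before the start codon, and 8 bases long in SEPTIN11, 166 bases before it. The run of SEPTIN7 had 15 bases and ended directly at the start codon, and that of SEPTIN2 had 12. Over 10116 tested genes with a leader the median longest run was 8 bases (quartiles 6 and 11). Of the 10 genes, 5 had a longer run than that median, 2 an equal one and 3 a shorter one. These lengths change with the isoform. The longest run was 8 to 17 bases over the 4 annotated coding transcripts of SEPTIN11 and 12 bases in both of ANLN, while it was 3 to 26 in SEPTIN9, 8 to 16 in SEPTIN7, 5 to 12 in SEPTIN2 and 4 to 12 in PRC1. The leaders of ANLN and SEPTIN11 were 221 and 201 bases long, near the median of 214. Their GC content was 57.5% and 74.6%, below and above the median of 66.3%.

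Anillin binds actin, myosin, active RhoA and septins and so links the parts of the contractile ring. Its gene (ENSG00000011426.11) lies at chr7:36389806-36453791 on the plus strand in GENCODE release 29 (GRCh38). In DMSO replicates 1 to 4 it stood at 29.8, 22.49, 26.35 and 30.22 TPM. In CR31B replicates 1 to 4 it stood at 17.45, 11.36, 16.76 and 11.91 TPM. The highest CR31B library thus lay below the lowest DMSO library. The mean was 27.2 ± 3.60 TPM with DMSO and 14.4 ± 3.18 TPM with CR31B (SD, n = 4 per group). The log2 fold change was -0.89, with an SE of 0.16, a 95% confidence interval of -1.26 to -0.53 and an adjusted p of 0.0109 in limma. Only 1.55% of tested genes had a lower log2 fold change. Within replicate pairs the log2 difference was -0.74, -0.93, -0.62 and -1.27 for numbers 1 to 4. ANLN was called in all 15 alternative analyses, with a log2 fold change from -0.99 to -0.79 and a limma adjusted p from 0.00335 to 0.0465.

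Of the regulators that place the ring, 0 of 3 were called. ECT2 ranged from 40.8 to 49.4 TPM in CR31B and from 41.5 to 52.4 TPM in DMSO, with a log2 fold change of -0.062 (95% confidence interval -0.31 to 0.19). RACGAP1, the GTPase-activating subunit of centralspindlin, ranged from 81.9 to 106.7 TPM in CR31B and from 82.2 to 90.5 TPM in DMSO. Its log2 fold change was 0.12 (95% confidence interval -0.13 to 0.36). PRC1, which crosslinks antiparallel microtubules of the midzone, was the most abundant of the 6 genes that are not septins, averaging 241 ± 28.8 TPM with DMSO and 229 ± 26.1 TPM with CR31B (SD, n = 4 per group). Its log2 fold change was -0.072 (95% confidence interval -0.35 to 0.21), and the sign turned to 0.032 with quantile normalization.

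The midbody genes CIT and CEP55 were not called either. CIT, a kinase that holds the ring and the midbody together, averaged 23.0 ± 1.36 TPM with DMSO and 23.0 ± 4.58 TPM with CR31B (SD, n = 4 per group). CR31B replicate 2 was its lowest library, at 16.29 TPM, and without it the log2 fold change of CIT moved from -0.019 to 0.13. CEP55 had the lowest level of the 10, at 9.99 ± 1.14 TPM with DMSO and 9.02 ± 1.43 TPM with CR31B (SD, n = 4 per group), with a log2 fold change of -0.14 (95% confidence interval -0.45 to 0.17). Over the 8 genes that were not called, the limma adjusted p ran from 0.522 for SEPTIN9 to 0.957 for CIT.

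**Figure D2:**
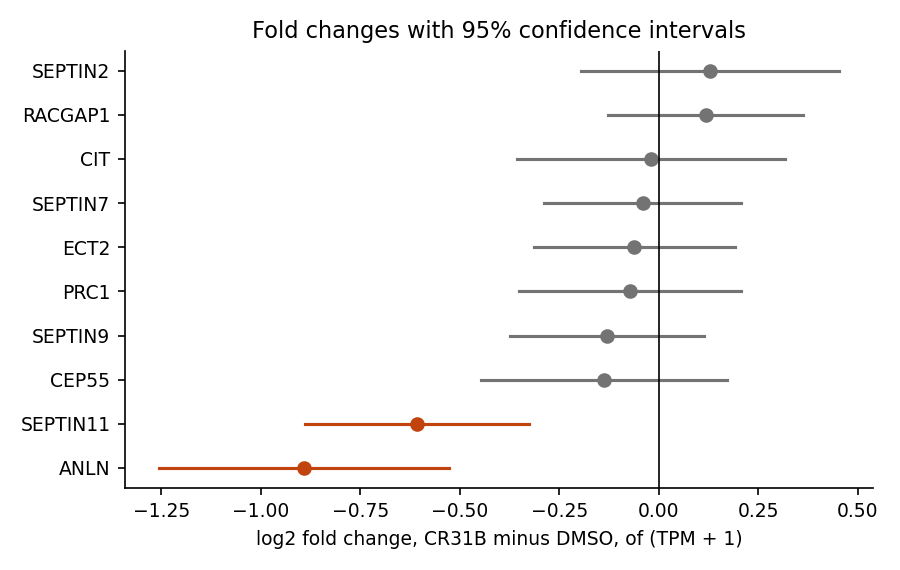
Log2 fold change of (TPM + 1), CR31B minus DMSO, for the 10 genes (points) with 95% confidence intervals from limma (lines), 4 libraries per group; orange marks the genes called over all tested genes. The intervals of ANLN (-1.26 to -0.53) and SEPTIN11 (-0.89 to -0.33) lie below 0, and the other 8 span 0.

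Ratios within a library do not depend on how the library was scaled. The ratio of ANLN to ECT2 was 0.366, 0.279, 0.376 and 0.241 in CR31B replicates 1 to 4 and 0.633, 0.541, 0.503 and 0.607 in DMSO replicates 1 to 4. The ratio of ANLN to RACGAP1 was 0.317 ± 0.0499 with DMSO and 0.152 ± 0.0218 with CR31B (SD, n = 4 per group). ANLN to CIT was 1.19 ± 0.196 with DMSO and 0.630 ± 0.103 with CR31B (SD, n = 4 per group). The groups did not overlap for these ratios or for ANLN to PRC1. They did overlap for ANLN to CEP55, which ran from 2.11 to 3.18 with DMSO and from 1.28 to 2.18 with CR31B. By contrast ECT2 to RACGAP1, the exchange factor and its partner, was 0.556 ± 0.0700 with DMSO and 0.492 ± 0.0800 with CR31B (SD, n = 4 per group), with overlapping groups. RACGAP1 to KIF23, the kinesin subunit of centralspindlin, was 2.78 ± 0.462 with DMSO and 2.92 ± 0.647 with CR31B (SD, n = 4 per group), also overlapping. The ANLN ratios set the same ANLN values over genes that were not called, and are no separate evidence of the ANLN fold change.

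Septins fall by sequence into groups named after SEPTIN2, SEPTIN3, SEPTIN6 and SEPTIN7, and subunits of different groups take fixed places in a filament. SEPTIN11 belongs to the SEPTIN6 group, SEPTIN9 to the SEPTIN3 group, and SEPTIN7 is alone in its own. SEPTIN11 (ENSG00000138758.12) lies at chr4:76949703-77040384 on the plus strand in GENCODE release 29 (GRCh38). It stood at 164.01, 146.97, 153.94 and 160.13 TPM in DMSO replicates 1 to 4. In CR31B replicates 1 to 4 it stood at 109.08, 83.09, 120.72 and 99.29 TPM. All CR31B libraries were below all DMSO libraries, and replicate 2 was the lowest of each group. The mean was 156 ± 7.45 TPM with DMSO and 103 ± 15.9 TPM with CR31B (SD, n = 4 per group), and the log2 fold change was -0.61, with an SE of 0.13, a 95% confidence interval of -0.89 to -0.33 and an adjusted p of 0.0181 in limma. A lower log2 fold change was found in 4.36% of tested genes. The SEPTIN11 call was lost without CR31B replicate 4, without DMSO replicate 1 or without DMSO replicate 4, where the limma adjusted p was 0.0544, 0.0546 and 0.0603, while the log2 fold change stayed between -0.69 and -0.51 over all 15 alternatives.

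The other 3 septins of the set were not called. SEPTIN2 was the most abundant gene of the set, averaging 264 ± 45.7 TPM with DMSO and 288 ± 37.8 TPM with CR31B (SD, n = 4 per group). Its log2 fold change was 0.13 (95% confidence interval -0.19 to 0.45), and in each of the 4 replicate pairs the CR31B library was the higher one, as for 20.1% of all tested genes. SEPTIN7, a core subunit of septin filaments, averaged 144 ± 15.6 TPM with DMSO and 139 ± 7.60 TPM with CR31B (SD, n = 4 per group). Its log2 fold change of -0.041 (95% confidence interval -0.29 to 0.21) turned to 0.0087 with quantile normalization and to 0.0098 without DMSO replicate 3. SEPTIN9, which is part of the longer of the known filament units, averaged 105 ± 3.13 TPM with DMSO and 96.3 ± 11.2 TPM with CR31B (SD, n = 4 per group), with a log2 fold change of -0.13 (95% confidence interval -0.37 to 0.11).

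SEPTIN11 took a smaller part of its own group's footprints after CR31B. In DMSO it made up 71.9%, 70.4%, 72.3% and 71.8% of the summed TPM of the SEPTIN6 group in replicates 1 to 4. In CR31B it made up 59.8%, 59.3%, 63.7% and 59.8%. The rest of that group, SEPTIN6, SEPTIN8, SEPTIN10 and SEPTIN14, summed to 61.9 ± 2.19 TPM with DMSO and 66.5 ± 6.86 TPM with CR31B (SD, n = 4 per group), with overlapping groups. The whole SEPTIN6 group summed to 140 to 189 TPM in CR31B and to 209 to 228 TPM in DMSO. The ratio of SEPTIN11 to SEPTIN7 was 1.09 ± 0.116 with DMSO and 0.738 ± 0.105 with CR31B (SD, n = 4 per group), without overlap. SEPTIN7 to SEPTIN2 was 0.551 ± 0.0525 with DMSO and 0.490 ± 0.0572 with CR31B (SD, n = 4 per group), with overlap. The sum over all 13 septins was 792 ± 62.0 TPM with DMSO and 737 ± 69.6 TPM with CR31B (SD, n = 4 per group), and its groups overlapped. These shares and ratios rest on the same SEPTIN11 values as the fold change and are no separate evidence of it.

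**Figure D3:**
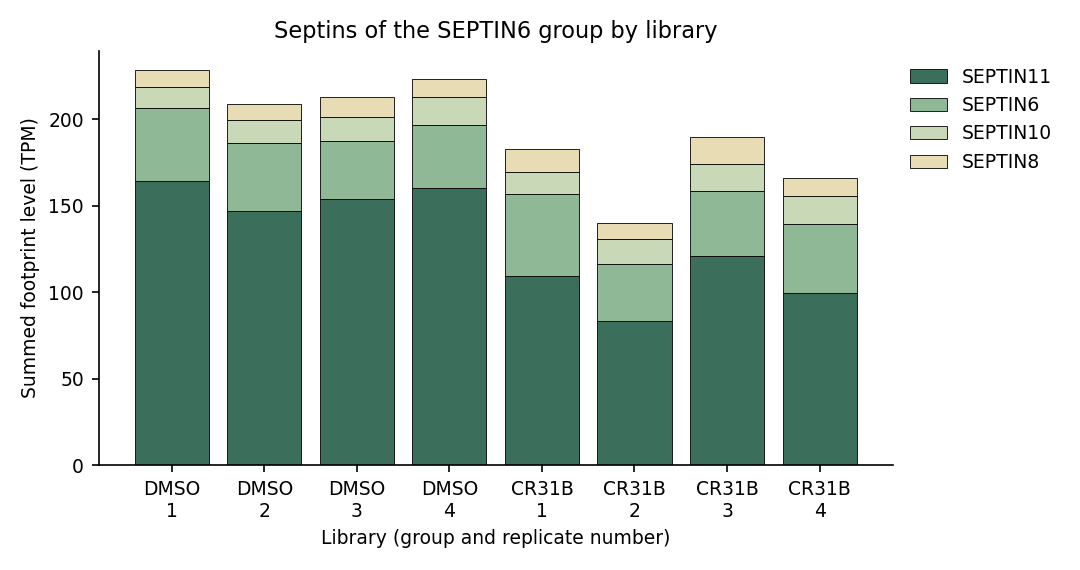
Stacked footprint levels (TPM) of SEPTIN11, SEPTIN6, SEPTIN10 and SEPTIN8, the SEPTIN6 group members listed above 0, in each of 4 DMSO and 4 CR31B libraries. The SEPTIN11 segment runs from 147 to 164 TPM in DMSO and from 83.1 to 120.7 TPM in CR31B, while the segments above it sum to 57.1 to 73.4 TPM over all libraries.

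The order of the 10 levels differed between groups in the places of ANLN and SEPTIN11. In DMSO the order from the highest mean was SEPTIN2, PRC1, SEPTIN11, SEPTIN7, SEPTIN9, RACGAP1, ECT2, ANLN, CIT and CEP55. Ranges of neighbours overlapped there for SEPTIN2 and PRC1, for SEPTIN11 and SEPTIN7, and for ANLN and CIT. In CR31B, SEPTIN11 stood below SEPTIN7 with no overlap and overlapped SEPTIN9. ANLN stood below CIT, at 14.4 against 23.0 TPM, and their ranges overlapped. The order turns in part with the length used. If whole transcripts were behind the TPM values, division by coding length instead would move PRC1 from rank 2 to rank 4 in both groups, behind SEPTIN11 and SEPTIN7, and leave SEPTIN2 first and CEP55 last.

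The remaining genes of cell division were taken from 6 lists with 83 genes, of which 74 were tested. Of these, 2 were called higher and 2 lower, against 3.45% and 4.02% of all tested genes. In the fit with that block, 4 of the 74 were called higher and 5 lower, against 5.77% and 6.56%. The median log2 fold change over the 74 genes was 0.0053.

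The central spindle and passenger complex list had 10 tested genes with a median log2 fold change of -0.085, of which 1 rose and 0 fell. The gene that rose was INCENP, the scaffold that holds Aurora B in the chromosomal passenger complex. It stood at 29.4, 31.64, 38.77 and 28.29 TPM in CR31B replicates 1 to 4 while the DMSO libraries 1 to 4 stood at 19.46, 17.87, 23.19 and 19.78 TPM. All CR31B libraries were above all DMSO libraries, and the log2 fold change was 0.64 (SE 0.13, limma adjusted p of 0.0165). The INCENP call was lost without DMSO replicate 2 or DMSO replicate 4, at a limma adjusted p of 0.0544 and 0.0545. AURKB, the kinase of that complex, had a log2 fold change of -0.34 that was not called (limma adjusted p of 0.271, and 0.0413 with the replicate block).

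The list of RhoA and contractile ring genes had 19 of 21 genes tested and a median log2 fold change of 0.036, with 0 genes higher and 1 lower. PFN1, profilin, delivers actin monomers to formins. It stood at 536.61, 530.69, 412.04 and 447.37 TPM in CR31B replicates 1 to 4 while the DMSO libraries 1 to 4 stood at 694.64, 705.13, 696.07 and 767.91 TPM. PFN1 fell, with a log2 fold change of -0.58 (SE 0.12; adjusted p of 0.0201 in limma), with no overlap between groups. The PFN1 call was lost in 5 of 15 alternatives, where the limma adjusted p was 0.0532 with no filter, 0.0519 and 0.0634 without CR31B replicate 3 or 4, and 0.0555 and 0.0711 without DMSO replicate 2 or 4. MYL6, a myosin light chain, had a log2 fold change of -0.44 that was not called (limma adjusted p of 0.0557) but passed in 5 of 15 alternatives. Its adjusted p in limma was 0.0489 over genes with a mean of 10 TPM or more, 0.0142 with rescaling over protein-coding genes, 0.0373 with quantile normalization, 0.0238 with the replicate block and 0.0466 without CR31B replicate 1. RHOA itself had a log2 fold change of 0.14, and the myosin heavy chains MYH9 and MYH10 had 0.24 and 0.28, with limma adjusted p of 0.561, 0.250 and 0.187.

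Among the 9 septins outside the set, 5 were tested and 0 were called by limma, with 2 at an unadjusted p under 0.05. Over all 11778 tested genes, 2752 had an unadjusted p under 0.05 in limma. The counts of this kind given below are to be read beside that share. SEPTIN5, the most abundant of them, averaged 54.4 ± 6.81 TPM with DMSO and 40.2 ± 6.52 TPM with CR31B (SD, n = 4 per group), with groups that did not overlap and a log2 fold change of -0.43 (limma adjusted p of 0.0893, and 0.0292 with the replicate block). SEPTIN3, from 2.53 to 4.27 TPM in CR31B and from 3.8 to 6.4 TPM in DMSO, had a log2 fold change of -0.61, near that of SEPTIN11. SEPTIN3 was not called (limma adjusted p of 0.0718, and 0.0929 with the replicate block), and its groups overlapped. The Borg proteins (CDC42EP1 to CDC42EP5), which bind septins and CDC42, had 3 of 5 genes tested and 0 called by limma, with 2 at an unadjusted p under 0.05. CDC42EP3 averaged 17.9 ± 5.21 TPM with DMSO and 34.9 ± 15.2 TPM with CR31B (SD, n = 4 per group). Its log2 fold change of 0.87 was not called (limma adjusted p of 0.0971), and of 15 alternatives it passed in 2, the replicate block (0.0219) and without CR31B replicate 2 (log2 fold change 1.12, limma adjusted p of 0.0301). CDC42EP4 had a log2 fold change of 0.59 (limma adjusted p of 0.153), which of the 15 alternatives passed in the replicate block (0.0160). At the abscission step, 0 of 17 tested ESCRT and midbody genes were called by limma, with 3 at an unadjusted p under 0.05 and a median log2 fold change of -0.065. Their most abundant gene, the ESCRT-III subunit CHMP2A, averaged 147 ± 4.45 TPM with DMSO and 144 ± 4.36 TPM with CR31B (SD, n = 4 per group).

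Because ANLN, ECT2, RACGAP1, PRC1 and CEP55 peak in G2 and mitosis, 20 G2/M genes with roles outside cytokinesis were set beside them. All 20 were tested, with a median log2 fold change of 0.0053, and 1 rose and 1 fell. MKI67, the proliferation marker Ki-67, had a log2 fold change of 0.51 and rose (SE 0.13; adjusted p of 0.0385 in limma), and CDK1, the mitotic kinase, fell by 0.55 (SE 0.13, limma adjusted p of 0.0304). The MKI67 call was lost in 7 of 14 alternatives, at a limma adjusted p of 0.0795 with no filter, of 0.0837, 0.0798 and 0.0755 without CR31B replicate 1, 3 or 4, and of 0.0880, 0.109 and 0.111 without DMSO replicate 1, 2 or 4. The CDK1 call was lost in 6 of 15, at 0.0757 with no filter, 0.0714 and 0.0770 without CR31B replicate 3 or 4, and 0.0878, 0.0723 and 0.0988 without DMSO replicate 1, 2 or 4 (limma adjusted p). The summed level of this list was 1266 to 1770 TPM in CR31B and 1272 to 1682 TPM in DMSO.

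**Figure D4:**
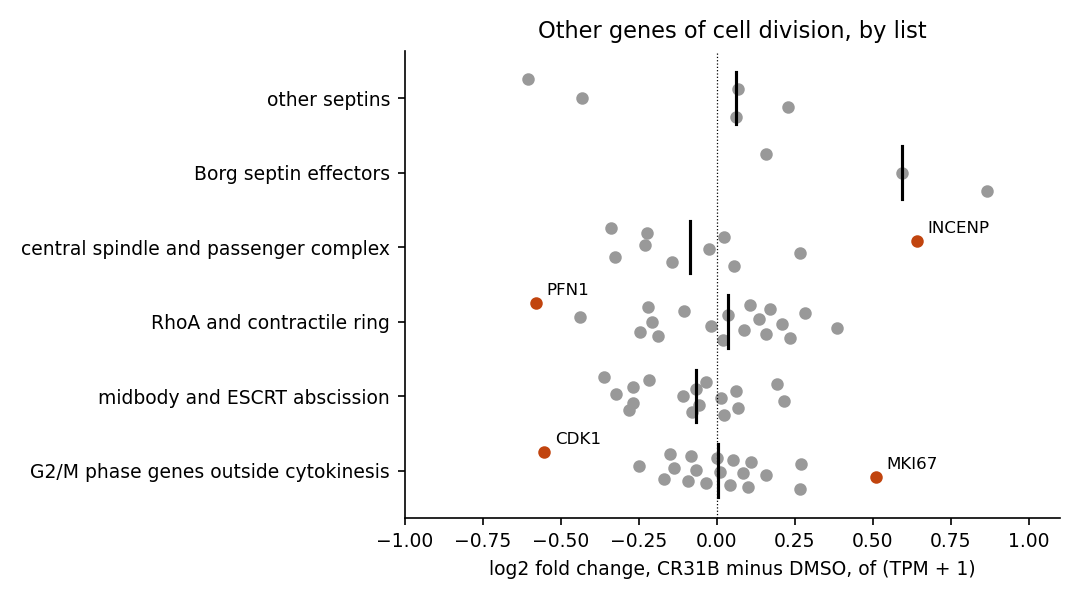
Log2 fold change of (TPM + 1), CR31B minus DMSO, of the 74 tested genes of 6 lists; each point is a gene, black bars are list medians, and orange marks genes called over all tested genes. The labelled genes are INCENP and MKI67, which were higher, and PFN1 and CDK1, which were lower, and the other 70 points are grey.

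Promoters were taken from RefSeq (GRCh38.p14) as 250 bases before to 50 bases after each start site, and 9 of the 10 genes had an entry. The motif TTTGAA, the usual form of the cell cycle homology region through which many G2/M promoters are silenced in resting cells, was searched on both strands. It was present for all 5 matched genes that are not septins and for 0 of the 4 septins, or for 6 of 6 and 0 of 17 of their promoter windows, since a gene can have several. The ECT2 windows overlap, and the match shown for ECT2 lies in both, so they are not separate cases. Of all 35116 promoters 15.2% hold it, and of all 27305 genes 18.2% have it in at least 1 promoter. The match nearest to a start site is shown in capitals for each, on the strand of the gene, where TTCAAA is the motif on the opposite strand.
ANLN, chr7:36389830-36389859: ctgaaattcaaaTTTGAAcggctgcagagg
ECT2, chr3:172750748-172750775: agcagcttagttTTTGAAtcggttgtgg
PRC1, chr15:90994538-90994567: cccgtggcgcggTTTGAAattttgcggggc
CIT, chr12:119877293-119877322: ccgttcctcgggTTCAAAcgcggcggcggg
CEP55, chr10:93496597-93496626: gcagccgcgggaTTCAAActcccggaagcg

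A TTTGAA match was thus shared by ANLN and by ECT2, PRC1, CIT and CEP55, whose footprint levels were not called. The motif CCAAT, bound by NF-Y and frequent beside that element, was found in 9 of the 23 promoter windows of these genes, against 34.6% of all promoters. At least 1 window of 7 of the 9 genes held it, against 39.7% of all genes, but SEPTIN2, SEPTIN7 and SEPTIN9 have several windows each. It was not in the windows of ANLN or SEPTIN11. Matches are descriptions of letters and not of binding.

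How far reads of these genes could be shared with others was measured on the coding sequence, in windows of 28 bases, about the length of a footprint. None of the windows of ANLN (0 of 3345), SEPTIN11 (0 of 1260), SEPTIN9 (0 of 1731) or CEP55 (0 of 1365) occurred in a transcript of another gene on either strand. SEPTIN7 shared 60.4% of its windows with 18 other genes, most of them its pseudogenes, RACGAP1 shared 15.3% and SEPTIN2 shared 9.09% with the pseudogene SEPTIN2P1, so their values carry some uncertainty. PRC1 shared 92.6% of its windows with an overlapping readthrough gene (ENSG00000284946.1), which was listed at a mean of 1.54 TPM over the 8 libraries while PRC1 was at 210.82 TPM or higher in each library. On the opposite strand 55 of 6180 CIT windows and 7 of 1833 PRC1 windows matched an antisense gene. Whether the counting used strand is not given in the sources used here.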

How the data were processed

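The authors deposited TPM for 60651 genes in 8 Ribo-seq libraries, 4 per group. The submitters' processing notes name cutadapt 3.2, Bowtie2 2.3.4.1, STAR 2.7.1a, RSEM 1.2.28 and DESeq2 1.32.0 with GRCh38, without roles; the annotation, strand setting and treatment of reads with several positions are not given in the sources used here. TPM forces each library to 1 sum, so a rise of 1 class of RNA lowers the others, and no read depth can be read from it. Columns were matched to libraries by description. Symbols were found for 60481 genes, and GENCODE release 29 gave types for 58405.

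Values were fitted as log2(TPM + 1) with limma 3.58.1 (R 4.3.3; eBayes with trend) over genes whose mean reached 1 TPM, with Benjamini-Hochberg adjustment over all of them; the fit was tested on simulated data. Tables and plots were made in Python 3.11.15 (pandas 2.3.3, matplotlib 3.10.9). Replicate numbers occur in both groups. After group means were removed, same-numbered libraries correlated across genes at 0.333, 0.324, 0.301 and 0.105. Libraries of different numbers correlated at -0.206 to 0.134, and the highest of these, CR31B 4 with DMSO 1, exceeded the 0.105 of number 4. The numbers were taken as pairs in an alternative fit. That pairing comes from these data and not from the labels, and it is unclear for number 4. Beside it, 14 other alternatives changed the pseudocount (0.1), the filter, the scaling, the variance model or left out 1 library. The labels do not say whether libraries came from separate cultures, although the design text calls them biological replicates. The members and lists were chosen with earlier results of these data known. From each pathway list, every gene called was named (up to 3 in each direction), or else its most abundant gene. Pseudogenes of members were named where their mean reached 1 TPM. These were added with their values already known: HAND2, AURKB, MYL6, RHOA, MYH9, MYH10, KIF23, CDC42EP4, SEPTIN3 and the readthrough gene.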

Additional observations from a re-analysis of the deposited data

Results flagged for a closer look

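Markers and genes added with their values already known were left out here. The members, the genes named from the lists by rule and the pseudogenes of members give 40 groups of 4 libraries. In 4 of these groups a single library was separated from the rest by nearly the whole range of the group, where about 2 such groups would be expected by chance. CEP55 read 8.29 TPM in DMSO replicate 3, and the other DMSO libraries read 10.31 to 10.68 TPM. PFN1 read 767.91 TPM in DMSO replicate 4, and the others 694.64 to 705.13 TPM. SEPTIN2P1, a pseudogene of SEPTIN2, read 82.78 TPM in CR31B replicate 3, and the others 3.47 to 7.90 TPM. It also read 21.58 TPM in DMSO replicate 2, and the others 9.42 to 10.76 TPM. In CR31B replicate 3, where SEPTIN2P1 equalled 24.4% of the SEPTIN2 level, SEPTIN2 was also at its highest, 339.29 TPM. SEPTIN2 read 329.99 TPM in DMSO replicate 3, where SEPTIN2P1 read 10.55 TPM, and 237.17 TPM in DMSO replicate 2. The part of SEPTIN2P1 in the SEPTIN2 values was not tested.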

How the results depend on the processing

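The alternatives gave 149 values for the 10 genes. Direction and call were as reported in 139 of them, SEPTIN11 lost its call in 3, and 7 values of genes that were not called changed sign. With quantile normalization the log2 fold change was 0.032 for PRC1, 0.0087 for SEPTIN7 and 0.018 for CHMP2A, and with rescaling over protein-coding genes it was 0.014 for CIT. When 1 library was left out it ran from -0.15 to 0.0057 (without DMSO replicate 1) for PRC1, from -0.092 to 0.13 (without CR31B replicate 2) for CIT, where it was 0.0092 without DMSO replicate 3, and from -0.096 to 0.0098 (without DMSO replicate 3) for SEPTIN7. The cause was not tested. Against 879 genes called over the whole table (406 higher, 473 lower), 1453 were called with the replicate block and 442 with no filter, where more genes were tested; leaving out 1 library gave 405 (without DMSO replicate 4) to 785 (without DMSO replicate 3). Of the 10 genes, 2 were called with the replicate block, and 1 to 2 when 1 library was left out. Of the 74 listed genes, 4 were called, 9 with the replicate block and 1 with no filter, and 0 (without DMSO replicate 2 or 4) to 5 (without CR31B replicate 2 or DMSO replicate 3) when 1 library was left out. The table gives no read depth, so the counting error of low genes such as CEP55 is unknown.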

Other observations

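The pseudogenes of members with a mean of at least 1 TPM were SEPTIN2P1, SEPTIN7P2 and SEPTIN7P14. SEPTIN7P14 was called lower after CR31B, and so was the readthrough gene over PRC1, beside 4.02% of all tested genes called lower. SEPTIN7P14, a transcribed pseudogene that shares 4.13% of the SEPTIN7 coding windows, read 5.17, 5.68, 5.69 and 4.89 TPM in the DMSO libraries 1 to 4, and the CR31B libraries 1 to 4 read 2.67, 3.12, 3.03 and 2.13 TPM (log2 fold change -0.77, limma adjusted p of 0.00896). SEPTIN7P2, which shares 23.4% of those windows, had a log2 fold change of -0.20 (limma adjusted p of 0.601). That of SEPTIN2P1 was -0.22 (limma adjusted p of 0.903). Neither was called. The readthrough gene ENSG00000284946.1 over PRC1, singled out after its values were seen, read 1.94, 2.16, 3.55 and 3.2 TPM in the DMSO libraries 1 to 4, and the CR31B libraries 1 to 4 were listed at 0, 1.01, 0 and 0.43 TPM (limma adjusted p of 0.00781). How reads were divided between these genes and SEPTIN2, SEPTIN7 or PRC1 is not given in the sources used here.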
